A study of Saccharomyces cerevisiae with 4 samples.

Results

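In the systematic nomenclature of budding yeast, a hyphen and a letter after a name (YBR200W-A, for example) mark a reading frame placed next to, or opposite to, a gene that had already been numbered. The names described here are those that end in such a suffix and had a level of at least 1 FPKM, a fragment count scaled to transcript length and library size, in at least 2 of the 4 libraries. Of 6690 names in the tables, 630 carried a suffix and 498 of them passed this filter; 7 of these were left out by the rule, which leaves 491 members. The other 132 suffixed names were under the filter, and 85 of those were at 0 in every library. YBR200W-A, YOR011W-A and YBR223W-A are named in the rule because their difference between the strains was already known, so their values are given as a description with no test.

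Total RNA came from Saccharomyces cerevisiae growing exponentially in YPD, a rich glucose medium, at 30 °C and harvested at an optical density of 1. The wild-type strain was MATα with the alleles can1-100, his3-11, leu2-3,112, lys2Δ, trp1-1 and ura3-1, had hmr replaced with ura3, and is also labelled GAL. The deletion strain carried the same alleles and the same hmr replacement, and in addition hst1Δ::KanMX and sir2Δ::TRP1. The hmr replacement, shared by both strains, keeps a haploid from expressing both mating-type programmes when silencing is lost. Each strain gave 2 libraries, described by the series as technical replicates of 1 strain, so the p-values below measure only the spread between such libraries and not the spread between cultures.

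Sir2 and Hst1 are related NAD+-dependent deacetylases. Sir2 silences the mating-type loci, the telomeres and the ribosomal DNA, and Hst1 is brought by the DNA-binding repressor Sum1 to the promoters of genes that are otherwise used in the middle of sporulation. Small reading frames were mostly left out of the first annotation of the yeast genome for their length and added one by one later; they include ribosomal proteins, subunits of the respiratory chain and ATP synthase, and parts of the kinetochore, beside many frames with no known product.

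The sequences of 4 reading frames carry the main facts about size and level. YBR200W-A and YOR011W-A had the largest differences among members called higher in the deletion strain, and YDR524W-C and RPL41B had the highest levels of all members. They are read from the RefSeq assembly R64, 5′ to 3′ on the strand of the gene (the plus strand for all but RPL41B), with the start and stop codons in capitals. YBR200W-A lies on chromosome II and has 165 bases, YOR011W-A on chromosome XV with 207 bases, YDR524W-C on chromosome IV with 90 bases and RPL41B on chromosome IV with 78 bases.
YBR200W-A: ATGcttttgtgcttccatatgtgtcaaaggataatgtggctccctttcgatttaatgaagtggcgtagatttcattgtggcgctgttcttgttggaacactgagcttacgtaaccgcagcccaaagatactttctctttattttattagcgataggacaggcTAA
YOR011W-A: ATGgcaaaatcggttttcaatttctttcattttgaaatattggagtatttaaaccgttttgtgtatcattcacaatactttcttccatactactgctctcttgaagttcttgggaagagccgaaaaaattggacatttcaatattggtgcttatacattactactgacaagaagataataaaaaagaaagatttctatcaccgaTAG
YDR524W-C: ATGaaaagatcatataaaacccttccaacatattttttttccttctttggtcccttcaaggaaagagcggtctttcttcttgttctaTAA
RPL41B: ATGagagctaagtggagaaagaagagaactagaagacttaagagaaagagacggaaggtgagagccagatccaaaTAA

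Promoter windows of 300 bases are made of the 250 bases before the start codon and the first 50 bases of the frame. The middle sporulation element to which Sum1 binds has the core letters CACAAA. Windows follow for 3 of the members that differed, all of which hold that core. They do not stand for the rest, since 8 of the 31 R64 members called higher held it. Capitals mark that core on either strand (it reads TTTGTG where it lies on the other strand). The YBR200W-A and SPO24 (chromosome XVI) windows are from the plus strand of R64 and the DPA10 (chromosome XII) window is from the minus strand.
YBR200W-A: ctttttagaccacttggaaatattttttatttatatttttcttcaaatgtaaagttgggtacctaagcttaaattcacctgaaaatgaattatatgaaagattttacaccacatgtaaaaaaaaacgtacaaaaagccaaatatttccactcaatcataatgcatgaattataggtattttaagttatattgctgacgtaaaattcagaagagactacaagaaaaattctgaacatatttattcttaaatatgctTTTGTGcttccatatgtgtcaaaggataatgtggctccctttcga
SPO24: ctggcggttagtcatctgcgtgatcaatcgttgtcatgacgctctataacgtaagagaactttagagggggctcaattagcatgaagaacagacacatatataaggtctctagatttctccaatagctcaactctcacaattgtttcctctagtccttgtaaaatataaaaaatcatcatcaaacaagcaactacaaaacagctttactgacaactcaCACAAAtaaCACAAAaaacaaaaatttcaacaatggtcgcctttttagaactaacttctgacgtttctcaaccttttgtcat
DPA10: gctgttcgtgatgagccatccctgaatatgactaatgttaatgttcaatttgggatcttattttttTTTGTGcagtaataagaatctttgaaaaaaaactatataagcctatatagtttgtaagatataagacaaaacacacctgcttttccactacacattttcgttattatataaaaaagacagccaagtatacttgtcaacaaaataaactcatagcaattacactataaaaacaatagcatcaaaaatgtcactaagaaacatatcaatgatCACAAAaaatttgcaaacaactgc

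The label "small" held for most but not all members that R64 annotates. R64 lists 280 of the 491, with coding lengths from 78 to 5382 bases and a median of 228, against a median of 1251 for the 5496 names without a suffix that are in R64 and passed the filter. A length under 300 bases was found for 212 of the 280, 37 had 300 to under 600 bases, and 31 had 600 or more, 19 of which were Gag or Gag-Pol frames of Ty retrotransposons. R64 gives a gene symbol to 130 of the 280. The remaining 211 members are not in R64 and have no length or product here; all 211 extend the name of a listed gene, 155 of them with the opposite strand letter (W or C) and 56 with the same. The suffix was A for 433 members, B for 48 and another letter for 10.

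Wild-type SIR2 was 24.3 and 23.8 FPKM and wild-type HST1 58.2 and 57.8 FPKM, and both genes were at 0 in both deletion libraries, as their labels say. The deposited tables held no read totals, so the depth behind a value is unknown. Not given in the sources used here are the use of strand and the handling of reads with several matching places. A member and a gene that overlaps it therefore cannot be told apart by their reads, which applies to 30 of the 280 R64 members by position. It also applies to 32 R64 members with a near-identical copy, among them all 19 Ty frames and, of the called members in R64, YOR192C-C. Copies were searched among R64 coding sequences only. The 211 members not in R64, of which 13 were called higher and 10 lower, were not checked.

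The members held 39.5% and 38.4% of the FPKM sum in the 2 wild-type libraries and 39.9% and 39.1% in the deletion libraries. YDR524W-C alone, a 90-base frame of unknown function, held 17.9%, 17.3%, 18.3% and 17.9%, and 6 of the 10 highest names in each library carried a suffix. FPKM divides by length, so for the same number of fragments a short frame has a higher value than a long one. The part that length has in the level of YDR524W-C was not tested. The 8 highest members by mean were YDR524W-C, RPL41B (a protein of the large ribosomal subunit), YDR524C-B, PMP1, YLR264C-A, PMP2 (PMP1 and PMP2 are small proteolipids associated with the plasma membrane proton pump), RPL29 (another large-subunit protein) and CWP2 (a cell wall mannoprotein). None of the 8 passed an adjusted p of 0.05, and their log2 differences lay between -0.09 for CWP2 and 0.17 for YLR264C-A.

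Differences between the strains were tested on log2(FPKM + 1) with limma over all 6370 names past the filter, and a name is called higher or lower at a Benjamini-Hochberg adjusted p under 0.05. All differences below are deletion minus wild type on that scale, which understates the change of low values. Among the 491 members, 44 (8.96%) were called higher and 11 (2.24%) lower, beside a background of 6.75% and 2.79% of all names. The filter let in 7 of the 44 and 3 of the 11 through 1 strain only, and these had to differ. Among the 437 members with at least 1 FPKM in every library, 37 (8.47%) were higher and 8 (1.83%) lower. The median difference of the members was 0.08, or -0.0071 after quantile normalization, and that of all names was -0.01. A difference of at least 1 log2 unit was reached by 26 of the 44 and 6 of the 11. Over all names it was reached by 211 of the 430 called higher and 12 of the 178 called lower. Among the members with at least 1 FPKM in every library it was reached by 19 of the 37 and 3 of the 8. Quantile normalization gave 41 higher and 21 lower members, and 355 higher and 294 lower names in place of 430 and 178. The number of members called higher was 18 without deletion replicate 1, 25 without deletion replicate 2 and 72 without wild-type replicate 1.

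**Figure D1:**
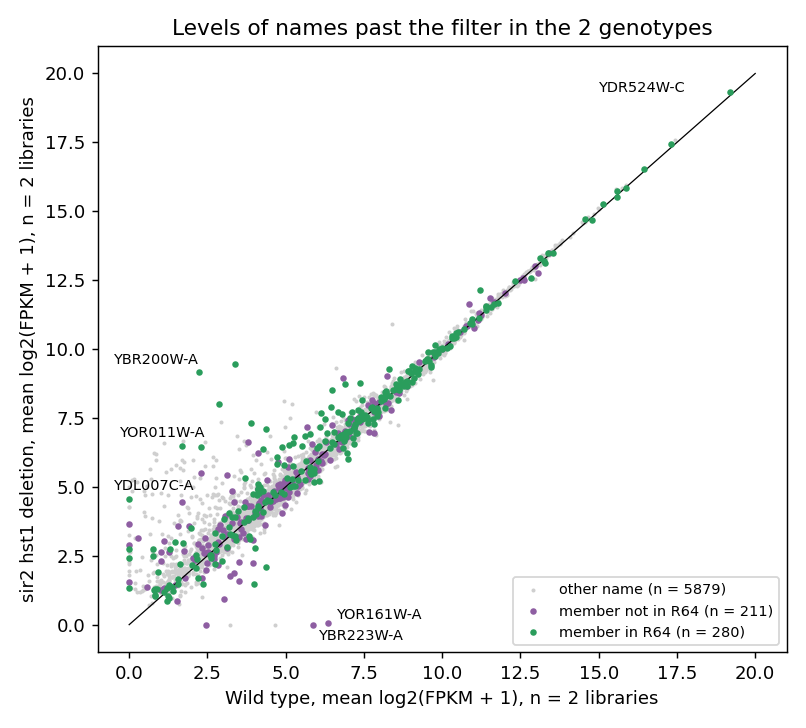
Mean log2(FPKM + 1) of the 2 wild-type libraries (horizontal) and of the 2 deletion libraries (vertical) for names past the filter, with members in R64 in green, members not in R64 in purple and other names in grey; the line marks equal levels. Most members lie near the line, YBR200W-A and YOR011W-A lie far above it, and YOR161W-A and YBR223W-A lie at the bottom edge, near 0 in the deletion strain.

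Calls were counted by annotation class. Of the 280 members in R64, 31 (11.07%) were higher and 1 (0.357%), COX26, was lower. Of the 211 not in R64, 13 (6.16%) were higher and 10 (4.74%) were lower. The shares over all names were 6.75% and 2.79%. The counts in this paragraph include members that the filter let in through 1 strain only, which had to differ. YOR161W-A, YBR223W-A and YKR075W-A, lower and not in R64, are among them. Of the 131 R64 members with neither a symbol nor a Ty product, 18 were higher and 0 were lower by limma, with unadjusted p-values under 0.05 for 42 higher and 5 lower. Those with a symbol had 13 higher and 1 lower of 130. By length, 3 of 43 frames under 150 bases, 24 of 169 frames of 150 to under 300 bases and 4 of 68 longer frames were higher. Whether these shares differ was not tested.

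YBR200W-A, a frame with no known product, had the largest difference of all members. Its wild-type values were 2.40 and 5.38 FPKM, against 542 and 601 in the deletion libraries, a log2 difference of 6.94. Both wild-type values stood on the lowest steps seen for frames of this length. In wild-type replicate 1, YIL046W-A and YER078W-A, which have the same length, were at 4 and 5 times the value of YBR200W-A (ratios whole within 0.01). In wild-type replicate 2, YER078W-A had the same value as YBR200W-A and YIL046W-A was at 2 times that value. The wild-type level therefore rests on very low values, so no fold is given, while both deletion libraries were far above both wild-type libraries.

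The flanking genes of YBR200W-A did not have a difference of that size. BEM1, a scaffold protein of cell polarity that ends 455 bases to one side, was at 29.9 and 30.9 FPKM in wild type against 29.1 and 26.9 in the deletion strain and was not called. DER1, which acts in degradation of proteins from the endoplasmic reticulum and starts 428 bases to the other side, was at 50.2 and 49.0 in wild type against 75.5 and 76.7 in the deletion strain, a log2 difference of 0.61 (limma adjusted p = 0.0049).

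YOR011W-A, also with no known product, was at 2.11 and 2.37 FPKM in wild type against 98.3 and 80.9 in the deletion strain, a log2 difference of 4.80. Both wild-type values stood on the lowest steps seen for frames of this length. In wild-type replicate 1, YMR174C, of the same length, was at 35 times the value of YOR011W-A. In wild-type replicate 2, YLR412C-A, also of this length, was at 2 times that value. The wild-type level therefore rests on very low values, so no fold is given. AUS1, the sterol importer whose name it extends, went from 12.5 and 12.5 to 23.3 and 21.8, a log2 difference of 0.80 (limma adjusted p = 0.005). YOR012W, 684 bases to one side, had a log2 difference of 0.63 (adjusted p = 0.0491). The nearest R64 gene on the other side is the non-coding RNA gene YNCO0013C, 1538 bases away, which has no value here. The member thus differed more than AUS1 and YOR012W, although both were also higher in the deletion strain.

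Several members were at 0 in both wild-type libraries and are listed without a fold or a test. YDL007C-A, a 258-base frame flanked in R64 by non-coding RNA genes, was at 28.0 and 18.7 in the deletion libraries. YNL067W-A was at 9.03 and 14.5 there, YAL068W-A at 6.01 and 6.70, YOL019W-A at 7.73 and 4.15 and YLR406C-A at 4.17 and 4.48. YER084W-A was at 0.00854 and 0.480 in wild type against 7.18 and 8.55 in the deletion strain. In each of these the deletion libraries were on one side and the wild-type libraries on the other, which the filter made necessary.

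DPA10 (YLR307C-A), a putative mitochondrial protein of unknown role, had the largest called difference among members with a symbol. Its values were 20.2 and 19.4 FPKM in wild type against 137 and 138 in the deletion strain, a ratio of means of 6.97 and a log2 difference of 2.74 ± 0.06 (SE, n = 2 libraries per strain; limma adjusted p = 9.9e-05). It lies between CDA1 and CDA2, the chitin deacetylases that make the chitosan layer of the spore wall, at distances of 322 and 825 bases. CDA1 was at 1.99 and 2.66 in wild type against 100 and 101 in the deletion strain, and CDA2 at 0.136 and 0.101 against 36.5 and 40.2. All 3 names of this run were higher in both deletion libraries, and DPA10, on the opposite strand, was the one above 10 FPKM in wild type.

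SPO24, a small protein of the prospore membrane involved in sporulation, was the only member on the sporulation list. It was at 2113 and 2646 FPKM in wild type against 4302 and 4700 in the deletion strain, a log2 difference of 0.93 ± 0.12 (SE; limma adjusted p = 0.0169). The strains did not overlap. As background, RefSeq notes a longer SPO24 transcript that is made in mid-meiosis under 2 middle sporulation elements. The call was lost without either deletion library (adjusted p = 0.081 and 0.091). YCL048W-A lies 437 bases from SPS22, a gene of spore wall formation, and rose from 16.8 and 8.68 to 36.6 and 41.0 (log2 difference 1.60 ± 0.30, adjusted p = 0.0442), while SPS22 rose from 2.04 and 2.26 to 26.1 and 23.9. The call of YCL048W-A was lost without either deletion library (adjusted p = 0.129 and 0.143).

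**Figure D2:**
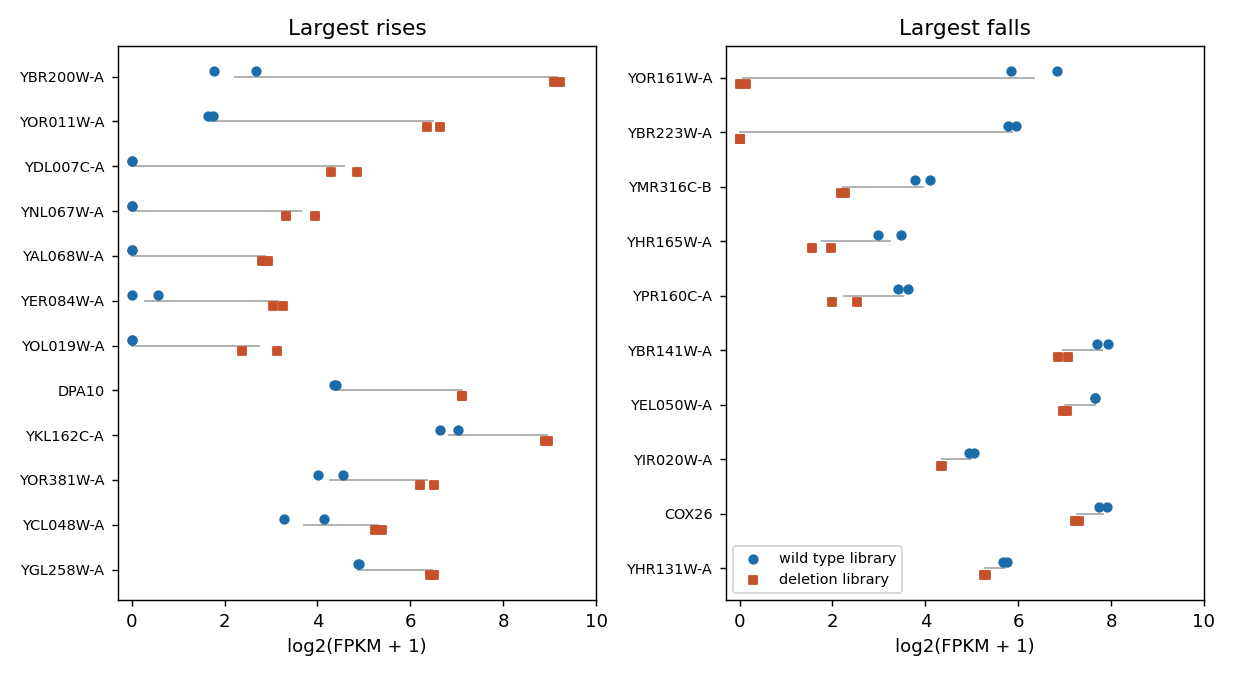
Log2(FPKM + 1) in each library for the members with the largest rises (left) and falls (right) among those called, with wild-type libraries as circles, deletion libraries as squares and a line joining the strain means. The circles and squares do not overlap for any member drawn; the members at 0 in both wild-type libraries stand at the left edge of the left panel, and YOR161W-A and YBR223W-A have their squares at the left edge of the right panel.

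The other large rises with values in both strains were spread over frames with and without an R64 entry. YKL162C-A, which is not in R64, was at 99.2 and 129 FPKM in wild type against 502 and 477 in the deletion strain (log2 difference 2.10 ± 0.13, adjusted p = 0.0019), whereas YKL162C, the gene whose name it extends, was at 13.7 and 13.9 against 16.0 and 13.9. YOR381W-A was at 22.4 and 15.1 against 73.2 and 90.2 (2.08 ± 0.21, adjusted p = 0.0078), a call lost without either deletion library (adjusted p = 0.0588 and 0.0702). It lies between FRE3, which was not called, and FIT2, a cell wall mannoprotein of iron uptake, at a log2 difference of 1.04. YGL258W-A, 9.16 kb from a chromosome end, was at 28.7 and 28.2 against 89.6 and 84.4 (1.58 ± 0.06, adjusted p = 0.00035), and its neighbour YPS5, an aspartic protease of the yapsin family, had a log2 difference of 1.24. Of the 16 R64 members within 20 kb of a chromosome end, limma called 3 higher (18.75%) and 0 lower, beside 6.75% and 2.79% of all names. The 3 were YGL258W-A, YER188C-A and YHR214C-E. Unadjusted p-values by limma were under 0.05 for 8 higher and 0 lower.

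Neighbours of the members called higher were often called higher themselves. Of 31 such members in R64, 29 had a flanking or overlapping gene that was tested, and for 14 of them (48.3%) at least 1 was also called higher. The same held for 23 of 240 members that were not called (9.58%). The part that reads shared with neighbours have in these values was not tested. RPL29 was at 35772 and 35642 FPKM in wild type against 39923 and 38688 in the deletion strain and was not called (limma adjusted p = 0.0696). Its neighbour RRT5, 298 bases away, was called higher and went from 0.649 and 1.23 to 11.5 and 14.0. RRT5 was so far below RPL29 in level that this pair cannot show whether a neighbour matters. SDH6, an assembly factor of succinate dehydrogenase, rose from 80.0 and 72.3 to 173 and 181 (log2 difference 1.21 ± 0.07, adjusted p = 0.0015), and ARO10, a decarboxylase of aromatic amino acid breakdown 700 bases away, had a log2 difference of 1.21.

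Over the 482 members whose unsuffixed name was also tested, the log2 difference of the member and that of the unsuffixed gene had a Pearson correlation of 0.26 and a Spearman correlation of 0.27. The Pearson correlation was 0.28 for members in R64 and 0.23 for those not in R64, whereas the Spearman correlation was 0.21 and 0.33. The order of these classes thus depended on the measure. The points share all 4 libraries, and pairs that overlap may share reads. Of the 44 members called higher, 11 extended the name of a gene that was also higher and 1 of a gene that was lower. Of the 11 called lower, 2 extended the name of a gene that was also lower. Over all names 6.75% were higher and 2.79% lower, and whether these shares differ was not tested.

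**Figure D3:**
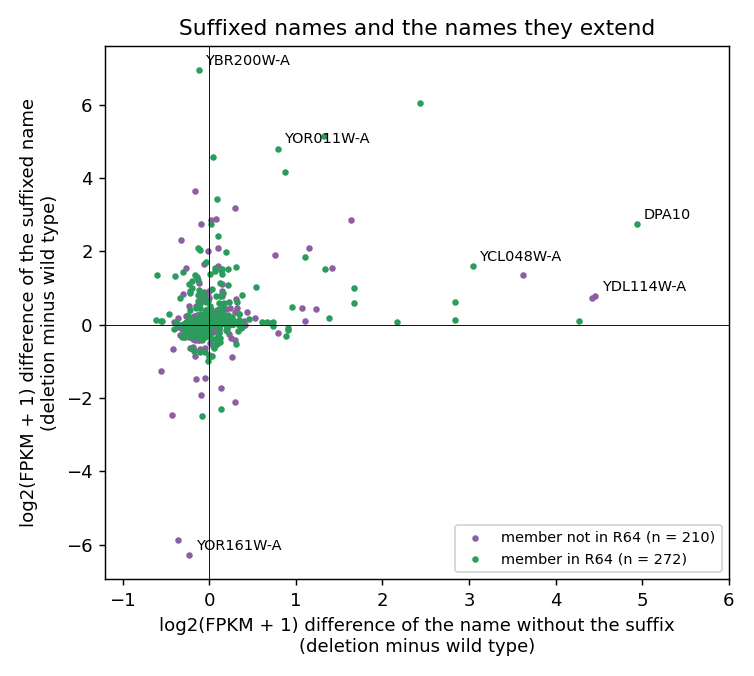
Log2(FPKM + 1) difference (deletion minus wild type) of each suffixed name (vertical) against that of the name it extends (horizontal), for 482 pairs. DPA10 and YCL048W-A stand to the right with their neighbours CDA1 and SPS22, whereas YBR200W-A and YOR161W-A stand above and below a gene whose difference is near 0.

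Of the 11 members called lower, 10 are not in R64. Each of those 10 extends the name of a gene with the opposite strand letter, as do 155 of all 211 members not in R64. Whether these shares differ was not tested. YOR161W-A, YBR223W-A and YKR075W-A passed the filter through wild type only and so had to differ. YOR161W-A was at 112 and 56.8 FPKM in wild type against 0.0930 and 0.000227 in the deletion strain, while PNS1 (YOR161C) was at 55.9 and 51.7 against 47.0 and 44.5. YBR223W-A was at 60.7 and 54.0 in wild type and under 0.0001 in both deletion libraries, while TDP1 (YBR223C), a phosphodiesterase of DNA repair, was at 7.96 and 8.13 against 6.38 and 5.71. YKR075W-A was at 4.63 and 4.38 against values under 0.0001. In these 3 the member was nearly at 0 in the deletion strain, but neither PNS1, TDP1 nor YKR075C was called. These 3 members have no position in R64, so whether they overlap those genes or share reads with them could not be checked.

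The other falls were smaller. YMR316C-B fell from 12.8 and 16.2 to 3.80 and 3.57 (log2 difference -1.72 ± 0.14, adjusted p = 0.0037) and YBR141W-A from 243 and 205 to 114 and 134 (-0.85 ± 0.12, adjusted p = 0.0221), and neither DIA1 nor the rRNA methyltransferase gene BMT2, whose names they extend, was called. YEL050W-A fell from 200.2 and 199 to 131 and 123 (-0.65 ± 0.06, adjusted p = 0.0049), and RML2, a protein of the mitochondrial ribosome on the other strand, also fell, by 0.42 on the log2 scale. YPR160C-A (-1.26) extends the name of GPH1, glycogen phosphorylase, which fell by 0.56. YHR165W-A (-1.46), YIR020W-A (-0.64) and YHR131W-A (-0.43) were called beside genes that were not. Apart from YEL050W-A, each of these 7 falls lost its call without at least 1 library, with adjusted p-values between 0.0503 and 0.126. This happened for YMR316C-B without deletion replicate 1, for YBR141W-A and YIR020W-A without either deletion replicate, and for YPR160C-A without wild-type replicate 1 or deletion replicate 2. YHR165W-A lost it without wild-type replicate 2 or either deletion replicate, and YHR131W-A without any 1 library.

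Members of known function were grouped by role. The counts of every role list stand beside 6.75% higher and 2.79% lower of all names. The lists are small, and whether their shares differ from these was not tested. Of 6 ribosomal proteins and ribosome-associated factors (RPL29, RPL2A, RPL36B, RPL41B, RPS30A and TMA7), 0 were called by limma, with unadjusted p-values under 0.05 for 3 higher and 0 lower and a median difference of 0.14. RPL41B, whose frame is printed above, was at 174435 and 150459 FPKM in wild type against 183615 and 173951 in the deletion strain, a log2 difference of 0.14 ± 0.08. RPS30A, a small-subunit protein made as a fusion with a ubiquitin-like protein in human, had 0.16 ± 0.05. Neither passed.

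Of 9 subunits and assembly factors of the respiratory chain and ATP synthase, 0 were higher and 1 was lower, and the median difference was -0.12. COX26, a subunit of cytochrome c oxidase and its supercomplexes, was at 239 and 213 FPKM in wild type against 157 and 149 in the deletion strain (log2 difference -0.56 ± 0.08, adjusted p = 0.0205). The strains did not overlap, but the call was lost without wild-type replicate 1 (adjusted p = 0.0593) or without deletion replicate 1 or 2 (0.0767 and 0.0868). ATP18 and ATP19, subunits of ATP synthase, had 0.17 and 0.12, QCR10 of the cytochrome bc1 complex -0.23, and CMC4, a twin-cysteine protein of the intermembrane space, 0.96 (adjusted p = 0.0704); none of these passed. Of 5 factors of mitochondrial import and assembly, 0 passed, and the differences of TIM8, TIM9, TIM10 and ISD11 lay between 0.004 and 0.07, with an unadjusted p under 0.05 for 0 of them.

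In the secretory pathway 1 of 10 members passed. TSC3, which stimulates serine palmitoyltransferase at the start of sphingolipid synthesis, rose from 877 and 867 to 1164 and 1093 (log2 difference 0.37 ± 0.05, adjusted p = 0.0208), a call lost without either wild-type library (0.0957 and 0.124). SBH1, a subunit of the Sec61 translocation channel, had 0.15, and PMP1 and PMP2 had -0.04 and -0.08. Of 3 subunits of the Dam1 complex, which joins kinetochores to microtubules, DAD4 rose from 499 and 557 to 678 and 672 (0.35 ± 0.07, adjusted p = 0.0462), while DAD3 and HSK3 were at -0.02 and 0.01. DAD4 lost its call when any 1 library was left out, with adjusted p-values of 0.0696 to 0.20.

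Among 7 members that act in transcription, chromatin and DNA repair, 2 were higher and 0 lower, and the median difference was 0.26. Over all names the shares were 6.75% and 2.79%. HUG1, an inhibitor of ribonucleotide reductase that is induced by DNA damage, went from 81.4 and 56.8 FPKM to 147 and 143 (log2 difference 1.08 ± 0.18, adjusted p = 0.0316). Its neighbour SML1, another inhibitor of ribonucleotide reductase, had a log2 difference of 0.22 (adjusted p = 0.0502). MHF1, a histone-fold protein that works with a DNA-repair helicase, rose by 0.44 ± 0.07 (adjusted p = 0.0355). Both calls were lost without either deletion library, with adjusted p-values of 0.104 to 0.12, and that of MHF1 also without wild-type replicate 2 (0.148). RPC10, a subunit shared by the RNA polymerases, and SEM1, of the proteasome lid, had 0.04 and 0.10 and did not pass.

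The remaining role lists held few members. In RNA maturation NOP10 and SMX2 had 0.12 and 0.13, in translation LSO2 and KTI11 had 0.07 and 0.02, and 0 of these 4 passed. Of 2 stress-induced genes DDR2 was at 426 and 353 in wild type against 293 and 270 in the deletion strain (adjusted p = 0.0697) and HOR7 had -0.05. Outside the lists, and named after their values were seen, DPI8 and MIN4, mitochondrial proteins of unknown role, had 1.55 and 1.46, WIP1, a kinetochore protein, had 0.49, PLS1, a peroxisomal regulator of lysine synthesis, had 0.72 and MRA1, a negative regulator of respiratory complex assembly, had 0.34; all 5 were called higher.

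The 19 Ty Gag and Gag-Pol member frames had 0 calls in either direction by limma, beside 6.75% higher and 2.79% lower of all names. Unadjusted p-values by limma were under 0.05 for 0 higher and 3 lower frames. Their median difference was -0.06. The 3 were YPR158C-C (5.69 and 5.58 FPKM in wild type against 3.41 and 3.86), YNL054W-A and YOL103W-A, with adjusted p-values of 0.0693, 0.125 and 0.132. All 19 have near-identical copies, and the other suffixed Ty names of the 70 listed were under the filter, so values of single copies are uncertain.

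Replicates differed more in the members than in other names. The median absolute log2 difference between the 2 wild-type libraries was 0.206 for members and 0.0601 for the 5872 names without a suffix, and between the deletion libraries it was 0.193 and 0.0961. At a mean of 10 to under 100 FPKM it was 0.322 for members and 0.0645 for unsuffixed names in wild type. The 67 unsuffixed names under 300 bases also had 0.0601 in wild type, but 35 of them averaged 1000 FPKM or more. At 10 to under 100 FPKM the 7 such short unsuffixed names had 0.337 in wild type, close to the members. Between the deletion libraries these 7 had 0.158, against 0.234 for members. At 100 to under 1000 FPKM 20 short unsuffixed names had 0.119 in wild type, against 0.148 for members. For R64 members under 150 bases it was 0.633 between wild-type and 0.578 between deletion libraries, for 150 to under 300 bases 0.144 and 0.148, and for longer ones 0.109 and 0.10. The spread between replicates was thus largest in the shortest frames.

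A total of 17 members were at 10 FPKM or more in one library and under 1 in its replicate. This was so for 15 between the wild-type and for 6 between the deletion libraries, some in both, against 1 of the 5872 unsuffixed names. In 12 of the 15 the low value was in wild-type replicate 2. None of the 17 was called, but they were picked for a wide gap between replicates, which itself makes a call unlikely. Of the 17, 9 had a coding length under 150 bases and 7 were not in R64. YFR012W-A, of 87 bases, was at 109 and 0 in wild type against 926 and 521 in the deletion strain, a log2 difference of 6.05 with an adjusted p of 0.16 by limma. MIN3, a mitochondrial protein of 87 bases, was at 219 and 0 against 176 and 142, and YER090C-A was at 188 and 0.00367 against 37.8 and 255. In these 3 the 2 wild-type libraries differed by more than the strain means did.

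**Figure D4:**
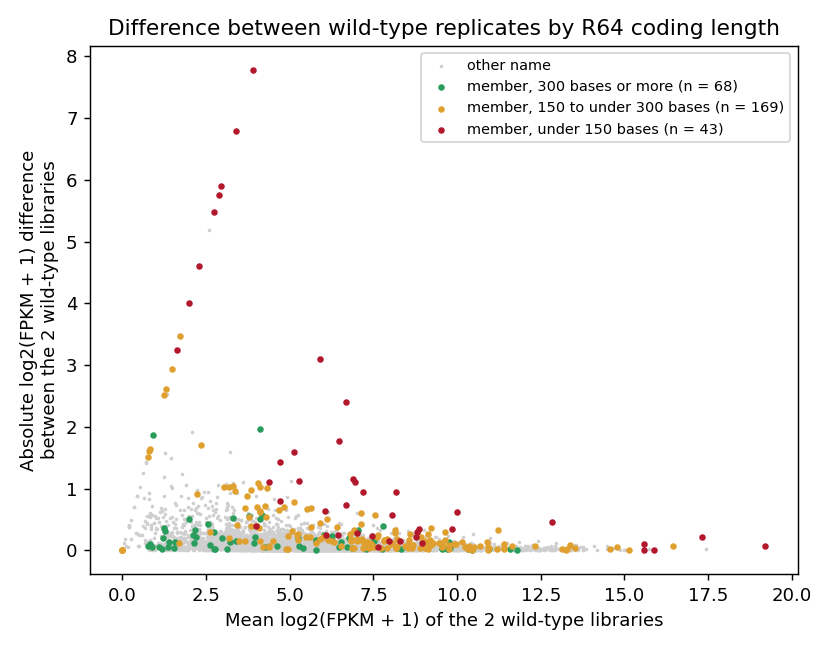
Absolute log2(FPKM + 1) difference between the 2 wild-type libraries (vertical) against their mean log2(FPKM + 1) (horizontal), for members in R64 coloured by coding length and other names in grey. The highest points are mostly frames under 150 bases, and those on the steep line at the left are names at 0 in one of the 2 libraries.

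The core CACAAA, on either strand, was in the 300-base window of 61 of the 280 R64 members (21.8%), of 8 of the 31 called higher (25.8%) and of 111 of the 348 unsuffixed genes called higher (31.9%). Over all R64 coding genes with a whole window the share was 18.8% (1131 of 6026). The longer form GNCACAAA, which contains the core, was in 20 members (7.14%), in 1 of the 31 called higher (3.23%), in 57 of the 348 unsuffixed genes (16.4%) and in 4.3% of all genes. In the windows printed above, SPO24 held the core 2 times, with first bases 32 and 23 bases before the start codon, and DPA10 held it 184 bases before the start codon and 27 bases into the frame. YBR200W-A held it once, inside its own frame. None of the printed windows held GNCACAAA. The window of YOR011W-A, which is not printed, held neither form. A match is a description of letters in the window.

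At the edge of the filter the second-highest library decided membership. The 3 members just inside were YER091C-A, YDR034C-D and YBR298C-A, with second-highest values of 1.01, 1.04 and 1.08 FPKM, and the 3 suffixed names just outside were YOR192C-B, YML045W-A and YLR410W-B, with 0.779, 0.754 and 0.752.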

How the data were processed

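The deposited tables give FPKM per reading frame, 1 table for each of 4 libraries; TopHat2 2.0.10 and Cuffnorm 2.2.1 are named in the submitters' processing notes. Not given in the sources used here are the build, the annotation, the scaling of libraries, strand and the handling of multiply mapping reads, so no coordinates are printed. R64 served for names, neighbours, lengths and sequences: 6007 of 6690 names matched and 683 did not. Near-identical copies are R64 coding sequences with a blastn 2.17.0 alignment of 95% identity covering 50% of their length, or more. FPKM carries no read totals, so the depth is unknown.

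The 6370 names that reached 1 FPKM in 2 or more libraries entered one limma 3.58.1 fit (R 4.3.3) of log2(FPKM + 1) on genotype, using eBayes(trend=TRUE), and p-values were adjusted over all of them by Benjamini-Hochberg. The test was checked on simulated data. No p is given for the 3 members named in the rule or for members that reach 1 FPKM in 1 strain only. The text names those 3, the 12 largest rises and up to 12 largest falls among called members whose strains do not overlap and whose higher strain averages 5 FPKM or more, up to 4 members per role list, the 8 highest members and the 3 names on each side of the filter; YKR075W-A, YLR406C-A, YHR214C-E, YER188C-A, CMC4, SDH6, MIN3, YFR012W-A, YER090C-A, the called members outside the role lists and single Ty frames were picked after seeing values. The members and role lists were chosen with earlier results of these data known. Alternatives changed the pseudocount, filter, scaling or eBayes options, or used R64 names only, a replicate block, and each library left out in turn.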

Additional observations from a re-analysis of the deposited data

How the results depend on the processing

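Without a filter on low values 23 members were called higher and 7 lower, and 76 of all names were lower. Quantile normalization gave 21 lower members and 294 lower names and moved the median of the members from 0.08 to -0.0071. With names in R64 only, 297 names were lower. Leaving out 1 library at a time gave 18 to 72 higher and 9 to 12 lower members, 184 to 377 higher and 47 to 83 lower names, and a median of the members of 0.0446 to 0.0738; a lone library is then assumed to vary like the other strain. Of the 44 members called higher, 16 were also called without deletion replicate 1 and 18 without deletion replicate 2, where 37 of the 44 still passed the filter, and 23 were also called with no filter. The cause of these shifts was not tested. The 2 replicate numbers share only a number: the difference of replicate 1 and 2 had a correlation of -0.0944 between the strains over all names and -0.153 over members. With the replicate number as a block, 45 members were higher and 14 lower, and 360 of all names were higher and 111 lower. Each called member that was still tested kept its direction under the alternatives run; some named members that were not called, with differences near 0, changed sign, such as DAD3 (-0.02, and 0.11 without deletion replicate 2), KTI11 and HOR7. Unknown depth, and only 2 technical libraries per strain, limit what can be said of short or low frames.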
